A study of Mus musculus with 31 samples.

Results

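Pegylated interferon alpha and 5-azacytidine given together were compared, gene by gene, with the sum of the responses to each drug alone in long-term haematopoietic stem cells, or LT-HSCs, of mice given marrow with mutant JAK2 and a Dnmt3a deletion. The comparison was defined by its groups, not by a cut on measured values. It and the gene lists below were, however, chosen with earlier results of these data known. The comparison used 15 of the 31 libraries of the study, 3 of VFDM_COMBO (replicates 2, 3 and 4) and 4 each of VFDM_IFN, VFDM_AZA and VFDM_V. For each gene the non-additivity term was the log2 level in COMBO, minus that in IFN, minus that in AZA, plus that in vehicle. It is 0 where the log2 change with both drugs equals the sum of the log2 changes with each drug, below 0 where COMBO is lower than that sum and above 0 where it is higher.

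The cells were sorted from the bone marrow of wild-type mice that had been transplanted with mutant marrow mixed with a 10-fold excess of wild-type marrow. VFDM donors carried SclCre, which drives recombination in blood stem cells and progenitors, the human JAK2-V617F transgene FF1, a GFP reporter and the deletion written Dnmt3 Δ/Δ. VF donors, which form the other 16 libraries, carried the same alleles without that deletion. From 4 weeks after transplant, for 8 weeks, mice received both drugs (COMBO), pegylated interferon alpha at 25 µg/kg under the skin each week (IFN), 5-azacytidine at 2 mg/kg into the abdomen each day (AZA), or vehicle. COMBO used the doses of the single drugs, and the donor mutations and the transplant were common to all treatments. The sort was for Lin-Sca1+cKit+CD48-CD150+ cells, and GFP is not named as part of it, so the share of wild-type competitor cells in each library is not given. Ages, clones and the number of animals behind each library are not given either, and the p-values below measure the spread between libraries, which may be partly technical.

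Type I interferon binds a receptor of the chains IFNAR1 and IFNAR2, whose kinases JAK1 and TYK2 activate transcription factors such as STAT2. With IRF9 these drive the interferon-stimulated genes, among them IRF7, which extends the response, and brakes such as USP18. In blood stem cells, interferon is known for drawing quiescent cells into division and for raising Sca1 on the cell surface. 5-Azacytidine is a nucleoside that is built into nucleic acids and traps DNA methyltransferases.

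The 15 VFDM libraries held 17782394 to 47242663 counts, with 18450 to 26202 detected rows, and 3 counts stood for at most 0.173 CPM (counts scaled to library size). Between replicates the spread exceeded counting error, with a chi-square of 19.6 to 115 per degree of freedom in 21 pairs. Dnmt3a, the deleted gene, was lower but not absent on its gene-level row, at 109 to 120 CPM in VFDM_V and 162 to 297 CPM in VF_V, and the row does not isolate the deleted part. It went against the label in 1 library: the library labelled VFDM_IFN 3 had 162 CPM, against 102, 104 and 111 CPM in the other VFDM_IFN libraries, and its CreERT2 transgene row stood at 113 CPM, against 212 to 243 CPM in the others. Of 61 genes refitted without it, Dnmt3a and Bst2 lost their call on the term. The counts of the term without it are given beside the main gene lists, while single-gene values and the other comparisons include it. A further fact bears on every value below. The VFDM_AZA libraries held interferon-stimulated genes at about the level of the VFDM_IFN libraries, and the VF_AZA libraries did not: Irf7 was at 115 to 159 CPM in VFDM_AZA, 168 to 198 CPM in VFDM_IFN and 9.85 to 16.8 CPM in VFDM_V, but at 3.34 to 16.6 CPM in VF_AZA and 9.79 to 20.4 CPM in VF_V. Between VFDM_AZA and VFDM_IFN, a comparison added after the data were seen, edgeR called 0 of 22172 genes, with 1053 at an unadjusted p under 0.05 (4.75%), while DESeq2 called 67 and limma voom 1. Why the AZA libraries hold this signal, and whether their labels are right, was not tested. The term and every statement on azacytidine alone in VFDM take those labels as given. COMBO against IFN, also added after the data were seen, uses no AZA library and is given for the interferon and LT-HSC lists and for several of their genes.

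Of 22172 genes tested, 451 departed from the sum (2.03%, edgeR quasi-likelihood test, adjusted p under 0.05): 414 lay below it (1.87%) and 37 above it (0.167%). Without the library labelled VFDM_IFN 3 there were 380, of which 359 lay below and 21 above, and 374 were the same genes. The count fell to 297 without vehicle library 4, 299 without vehicle library 2 and 299 without IFN library 1. The median term over all genes was -0.10. In bulk libraries, fewer cells of a type and less RNA per cell cannot be told apart.

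The 414 genes below the sum fell mainly into 2 patterns. In the first, 91 genes rose with each drug alone, and COMBO did not reach the sum: 62 of them rose in COMBO, 29 did not pass and 0 fell, and in 67 the COMBO mean was below that of the lower single drug. In the other, 296 genes passed the test with neither drug, and 262 of these fell in COMBO while 34 did not pass. Not passing does not show that a drug alone had no effect. By the sign of the log2 change, 171 of the 414 were lower with each drug alone and in COMBO. In 413 of the 414 genes all 3 COMBO libraries lay below the expected level, and 301 were lower in COMBO than in both single-drug groups, each by its own test. The 414 were chosen by the term from these same libraries, so these counts describe them and are no further support. When the changes were added in CPM and not in log2, 391 of the 414 still lay below the sum. Of 1254 small RNAs tested 1 was called, and 368 of the 414 genes were protein-coding. The 37 genes above the sum included 36 that passed with neither drug, of which 22 rose in COMBO.

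**Figure D1:**
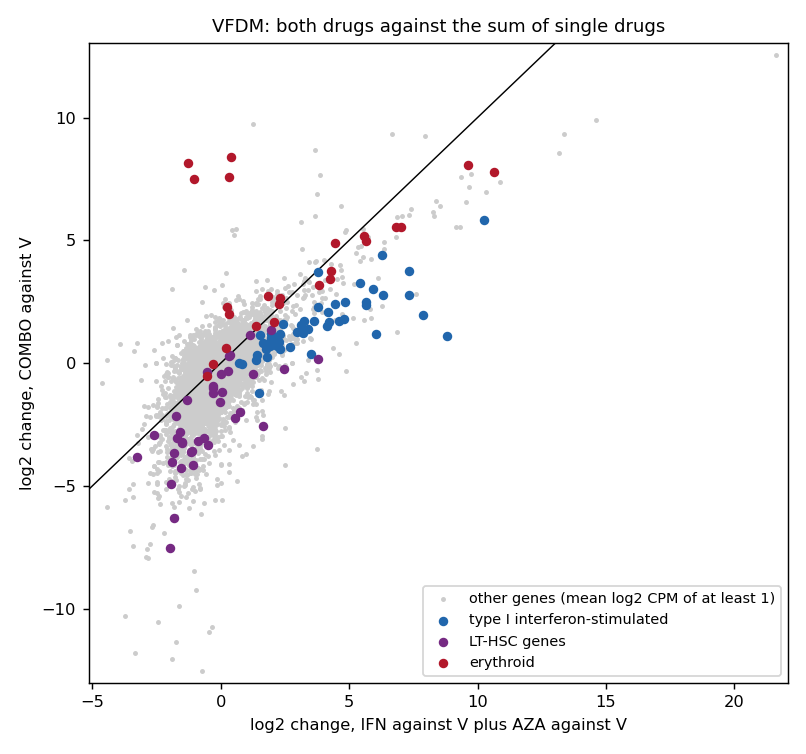
Log2 change with both drugs against vehicle (vertical) plotted against the sum of the log2 changes with interferon and with azacytidine (horizontal), VFDM, for genes with a mean log2 CPM of at least 1; the line marks equality and colours mark members of 3 lists. Every type I interferon-stimulated gene lies below the line, as do all LT-HSC genes shown but Kit, and 4 globin genes stand far above it.

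The promoters of the genes that rose with each drug and lay below the sum are shown first, because letters of the interferon-stimulated response element were frequent in them. The motif searched was GAAA, any 2 bases and a second GAAA, on both strands of RefSeq promoters of 300 bases (250 before to 50 after the start). It was present in 27 of the 64 such genes that matched a promoter (42.2%). It was present in 17 of 183 matched genes that passed with neither drug and fell in COMBO (9.29%) and in 1 of 22 above the sum (4.55%). Among all tested genes it was present in 455 of 11793 matched (3.86%), and in 3.99% of all 27025 genes with a promoter. Genes that rose with each drug without lying below the sum were not searched as a set, so the motif is not tied to lying below the sum. A match is a description of the letters and not a bound site. The 3 windows of 100 bases that follow are from RefSeq on GRCm38.p6, 5′ to 3′ on the plus strand, with the motif or its reverse complement in capitals; Ifit3, chosen after its values were seen, is shown because its window holds 2 matches.
Stat2, chr10:128270251-128270350: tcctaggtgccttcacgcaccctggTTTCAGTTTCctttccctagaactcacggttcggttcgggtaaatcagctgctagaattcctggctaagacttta
Slfn5, chr11:82951922-82952021: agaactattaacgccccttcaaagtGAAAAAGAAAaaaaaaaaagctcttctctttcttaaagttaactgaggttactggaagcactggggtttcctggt
Ifit3, chr19:34583348-34583447: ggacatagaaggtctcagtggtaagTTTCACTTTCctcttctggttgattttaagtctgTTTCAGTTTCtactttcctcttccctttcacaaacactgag
The match begins 222 bases before the RefSeq start in Stat2, 155 before it in Slfn5, and 156 and 122 before it in Ifit3. The promoters of Irf7, Ifi44 and Oasl2 held no match in this window.

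Type I interferon-stimulated genes rose with each drug alone and lay below the sum with both. Of 49 tested members of the type I list, 38 rose in COMBO, 44 with interferon alone and 40 with azacytidine alone. Over all genes, 16% passed in COMBO (5.52% up, 10.5% down), 0.965% with interferon (0.916% up, 0.0496% down) and 0.925% with azacytidine (0.852% up, 0.0722% down). On the term, 41 of the 49 lay below the sum, 0 above and 8 did not pass, and without the library labelled VFDM_IFN 3 there were 39 below. The median log2 change was 1.28 in COMBO, 1.64 with interferon and 1.56 with azacytidine, and the median term was -1.89, beside -0.10 over all genes. The COMBO mean was above the higher single drug in 11 members, between the drugs in 8 and below the lower drug in 30. Against interferon alone, 9 of the 49 were lower in COMBO and 1 was higher, while over all genes 7.88% passed (6.28% lower, 1.6% higher).

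Of the regulators, Irf7 and Usp18 had COMBO libraries that overlapped those of the single drugs, and Stat2 had them below both. Irf7 (chromosome 7, 141262706 to 141266481, mm10) had 164, 224 and 115 CPM in COMBO, 198, 177, 173 and 168 CPM in IFN, 135, 154, 115 and 159 CPM in AZA and 16.8, 9.85, 12.1 and 11 CPM in vehicle libraries. COMBO overlapped both single drugs, all AZA libraries lay below all IFN libraries, and every drug-treated library stood above every vehicle library. The log2 changes were 3.75 ± 0.33 in COMBO, 3.85 ± 0.32 with interferon and 3.50 ± 0.32 with azacytidine, and the term was -3.59 ± 0.45 (SE, adjusted p = 6.73e-06). The sum predicted 1980 CPM on the log scale and 307 CPM on the CPM scale, where COMBO had 168 ± 54.3 CPM (SD, n = 3). Against IFN, Irf7 in COMBO differed by -0.09 ± 0.31 log2 units (adjusted p = 0.920). Stat2, a signal transducer of the receptor, had a term of -2.04 ± 0.25 (adjusted p = 4.62e-06), and its COMBO libraries, at 60.4 to 89.4 CPM, lay below all IFN libraries (93.6 to 145 CPM) and AZA libraries (105 to 129 CPM) and above vehicle (44.6 to 51 CPM). It was lower in COMBO than in IFN (log2 -0.73 ± 0.19, adjusted p = 0.0108). Usp18, which removes ISG15 and silences the receptor, had 89.1, 64 and 60 CPM in COMBO, 82.7, 88.8, 89.9 and 72.4 CPM in IFN, 45.8, 60.3, 49.5 and 65.8 CPM in AZA and 11.9, 6.68, 8.45 and 7.87 CPM in vehicle. COMBO overlapped both single drugs, AZA lay below IFN, COMBO against IFN did not pass (-0.23 ± 0.26, adjusted p = 0.689), and the term was -2.90 ± 0.37 (adjusted p = 6.1e-06).

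**Figure D2:**
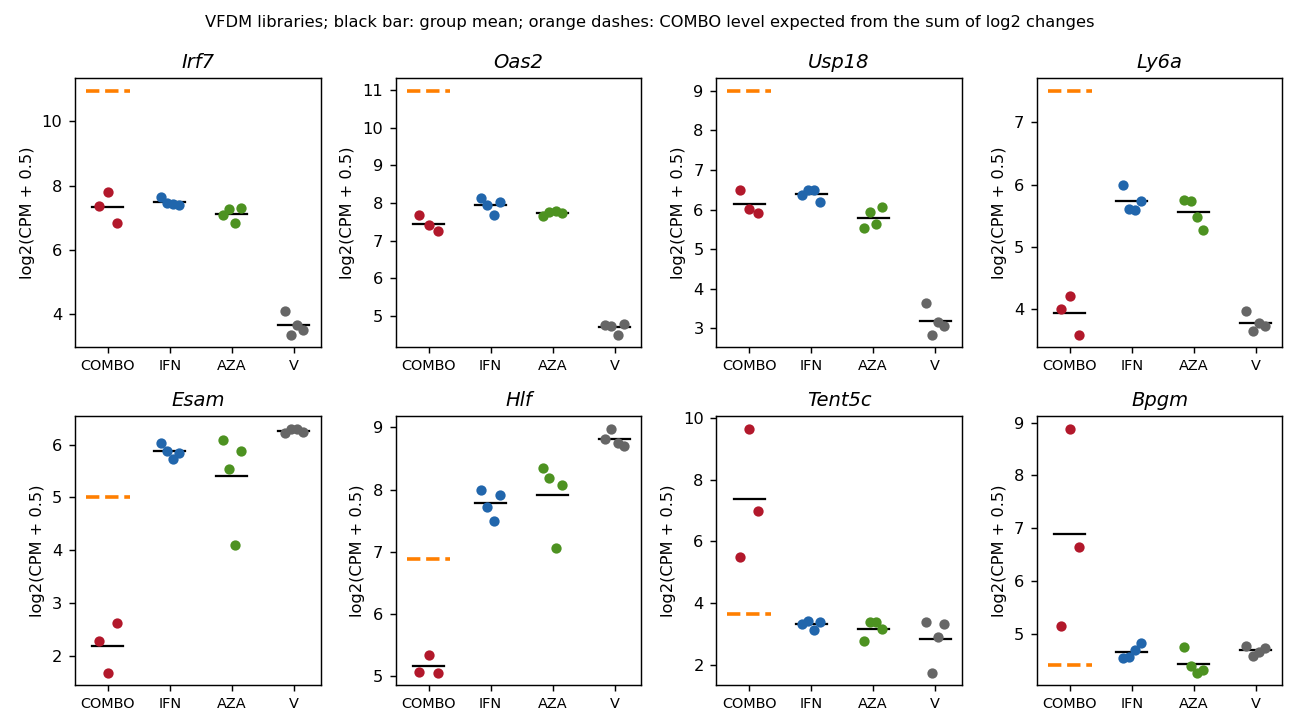
Level of 8 genes in each VFDM library as log2(CPM + 0.5); points are libraries, black bars group means, and dashes the COMBO level expected if log2 changes added up. Irf7, Oas2 and Usp18 sit in COMBO with the single drugs and far under the dashes, Ly6a sits with vehicle, Esam and Hlf sit below all other groups, and Tent5c and Bpgm sit above them with 1 COMBO library highest.

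Antiviral effectors ranged from genes at the single-drug level to genes at the vehicle level. Oas2 (chromosome 5, 120730333 to 120749853), which makes the oligoadenylate that activates RNase L, had 206, 170 and 152 CPM in COMBO, 280, 246, 203 and 260 CPM in IFN, 199, 215, 222 and 214 CPM in AZA and 26.7, 25.9, 22.2 and 27.2 CPM in vehicle libraries. COMBO overlapped both single drugs, did not differ from interferon beyond the test (log2 -0.49 ± 0.23, adjusted p = 0.202) and gave a term of -3.55 ± 0.32 (adjusted p = 2.36e-08). Ifi44, a protein of the antiviral response, had a term of -3.01 ± 0.28 (adjusted p = 2.36e-08), and Oasl2, an oligoadenylate-synthetase-like protein, -2.61 ± 0.27 (adjusted p = 2.15e-07). Both were lower in COMBO than in IFN, by log2 values of -0.68 for Ifi44 (adjusted p = 0.0289) and -0.64 for Oasl2 (adjusted p = 0.0352). Rnf213, a large ubiquitin ligase, stood at 2220 to 2840 CPM in COMBO, 2280 to 2570 CPM in IFN, 2000 to 2610 CPM in AZA and 734 to 836 CPM in vehicle, a term of -1.51 ± 0.18 (adjusted p = 2.92e-06), and COMBO against IFN did not pass (0.10 ± 0.13, adjusted p = 0.752). At the low end, Slfn5, a Schlafen-family protein, had 34.2, 80.6 and 48.3 CPM in COMBO, 197, 152, 148 and 155 CPM in IFN, 121, 140, 93.1 and 123 CPM in AZA and 44.3, 42, 46 and 33.5 CPM in vehicle. Its COMBO libraries overlapped vehicle and lay below both single drugs, by 1.59 log2 units against interferon (adjusted p = 0.000117). Ifit3, which binds foreign RNA with its relatives, had 8.04, 2.65 and 3.07 CPM in COMBO, 44.5 to 79.1 CPM in IFN, 29.9 to 42.6 CPM in AZA and 1.63 to 2.85 CPM in vehicle, and was lower in COMBO than in IFN (log2 -3.65, adjusted p = 0.00617). Apol9b, an apolipoprotein L family member, was at 8.63 to 11.8 CPM in COMBO, 48.1 to 70.7 CPM in IFN, 18.2 to 51.7 CPM in AZA and 3.61 to 5.03 CPM in vehicle, with no overlap between COMBO and any other group (COMBO against IFN -2.58, adjusted p = 0.000347). Ifi27, a mitochondrial interferon-stimulated protein, stood at 14 to 18.5 CPM in COMBO, below IFN (43.1 to 73.9 CPM), AZA (38.6 to 72.5 CPM) and vehicle (32.7 to 37.7 CPM), and fell against vehicle by 1.20 log2 units (adjusted p = 0.000812). Isg15, the ubiquitin-like modifier, was named after its values were seen because it went the other way: COMBO had 34.8, 89.9 and 43.1 CPM, above IFN (21.8 to 31.6 CPM), AZA (15.9 to 28.7 CPM) and vehicle (2.04 to 3.22 CPM), and its term of -1.89 did not pass (adjusted p = 0.0546, but 0.0215 without COMBO library 3). On the CPM scale the sum predicted 44.7 CPM for Isg15, under the COMBO mean of 55.9 CPM, so its side depends on the scale.

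Interferon-inducible GTPases, which attack the membranes around intracellular pathogens, had a median log2 change of 0.14 in COMBO, where the type I genes had 1.28. Of 19 members 16 lay below the sum, 0 above and 3 did not pass, with a median term of -1.73. Alone, interferon raised 11 and azacytidine 12, with no member falling, whereas in COMBO 5 rose and 4 fell. Against IFN 10 of the 19 were lower in COMBO and 0 higher, and without the library labelled VFDM_IFN 3 there were 15 below the sum. Iigp1 had 75.4, 54.6 and 61.7 CPM in COMBO, 234, 135, 180 and 172 CPM in IFN, 176, 192, 172 and 142 CPM in AZA and 83.2, 54.1, 81.7 and 70.5 CPM in vehicle. COMBO overlapped vehicle and lay below all libraries of both single drugs, the term was -2.73 ± 0.33 (adjusted p = 2.78e-06), and COMBO was lower than IFN (-1.50 ± 0.24, adjusted p = 8.27e-05). Irgm2, another such GTPase, was at 40.8 to 49.5 CPM in COMBO, below IFN (99.7 to 133 CPM), AZA (89.4 to 164 CPM) and vehicle (52.7 to 69.7 CPM), a term of -2.21 ± 0.27 (adjusted p = 2.92e-06), with COMBO lower than IFN (-1.30 ± 0.20, adjusted p = 3.6e-05). Mx1, the orthomyxovirus resistance GTPase, spread widely within COMBO, at 19, 41.7 and 8.94 CPM, with 42.3 to 55.2 CPM in IFN, 35.7 to 42.5 CPM in AZA and 2.54 to 3.97 CPM in vehicle (term -4.55 ± 0.72, adjusted p = 0.000171). Its COMBO against IFN value did not pass (-0.99 ± 0.50, adjusted p = 0.246).

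Nucleic acid sensors and antigen presentation genes departed in part. Among 24 sensors and adaptors, 5 lay below the sum, 0 above and 19 did not pass, with a median term of -0.58. They included the Z-nucleic-acid sensor Zbp1 (-2.86 ± 0.31, adjusted p = 5.56e-07), the RNA sensor Ddx58 (-1.50 ± 0.20, adjusted p = 1.49e-05) and its relative Dhx58 (-1.97 ± 0.28, adjusted p = 3.61e-05). Zbp1 had 38.7 to 49.2 CPM in COMBO, below IFN (58.5 to 95.6 CPM), overlapping AZA (39.1 to 71.6 CPM) and above vehicle (9.73 to 16.8 CPM), with COMBO lower than IFN (-0.73 ± 0.22, adjusted p = 0.0357). Against IFN, 2 of the 24 sensors were lower in COMBO and 2 higher. Of 24 genes of MHC class I presentation 5 lay below the sum and 19 did not pass, with a median term of -0.56. Against IFN 2 of these 24 were lower in COMBO and 0 higher. The shares over all genes were 1.87% below the sum and, for COMBO against IFN, 6.28% lower and 1.6% higher. Tap1, the peptide transporter, was at 183 to 255 CPM in COMBO, overlapping IFN (235 to 256 CPM) and AZA (198 to 224 CPM) and above vehicle (124 to 128 CPM), with a term of -0.94 ± 0.18 (adjusted p = 0.00229). Of 20 interferon receptors, kinases and transcription factors, 4 lay below, among them Stat2 and Irf7. The receptor chains Ifnar1 (0.10 ± 0.24, adjusted p = 0.972) and Ifnar2 (-0.33 ± 0.29, adjusted p = 0.793) and the kinases Jak1 (-0.08 ± 0.15, adjusted p = 0.960) and Tyk2 (-0.55 ± 0.29, adjusted p = 0.485), looked at after the values were seen, had terms that did not pass. In COMBO against vehicle Jak1 fell (log2 -0.58 ± 0.11, adjusted p = 0.000234), while Ifnar1, Ifnar2 and Tyk2 did not pass.

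**Figure D3:**
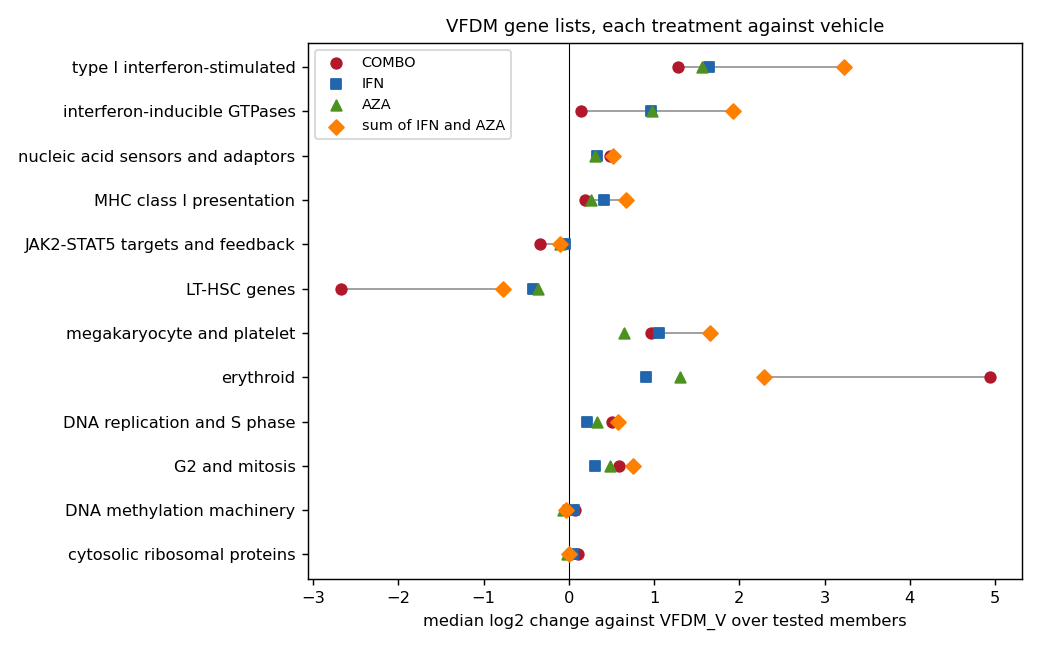
Median log2 change against VFDM vehicle over the tested members of 12 gene lists, in COMBO, IFN and AZA, with diamonds for the sum of the single drugs and a line from it to COMBO. COMBO lies at 1.28 and the sum at 3.23 for type I interferon-stimulated genes, at -2.68 and -0.77 for LT-HSC genes, and at 4.94 and 2.29 for erythroid genes, whose median term was 0.11 with 6 of 28 passing and 13 below 0.

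LT-HSC genes also lay below the sum in part. Of 40 members, 15 lay below, 0 above and 25 did not pass, with a median term of -1.73, and 13 lay below without the library labelled VFDM_IFN 3. In COMBO 29 of the 40 fell and 2 rose, whereas interferon alone lowered 1 and raised 3 and azacytidine alone lowered 2 and raised 2. Against IFN, 29 of the 40 were lower in COMBO and 0 higher, and against AZA 28 were lower and 0 higher. Over all genes 7.82% passed against AZA (5.87% lower, 1.94% higher). The number below the sum depended on single libraries, being 9 without COMBO library 3, 8 without AZA library 1 and 10 without COMBO library 2.

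Esam, an adhesion molecule of stem cells and endothelium (chromosome 9, 37528078 to 37538319), had 4.32, 2.7 and 5.68 CPM in COMBO, 64.7, 58.2, 52.7 and 56.8 CPM in IFN, 67.9, 45.9, 16.6 and 58.4 CPM in AZA and 74, 77.7, 78.4 and 74.8 CPM in vehicle libraries. Each COMBO library was below every other library, and the term was -3.07 ± 0.43 (adjusted p = 3.17e-05). Neither drug alone passed the test for Esam, although every IFN and AZA library lay below every vehicle library. Ctnnal1, an alpha-catenin relative, stood at 9.46 to 14.2 CPM in COMBO, below IFN (52.6 to 65.3 CPM), AZA (41.8 to 68.8 CPM) and vehicle (36.7 to 53.5 CPM), a term of -2.75 ± 0.42 (adjusted p = 8.85e-05). The next 4 genes were named after their values were seen. Procr, the protein C receptor used to mark LT-HSCs, had 0.0315, 0.0575 and 0.439 CPM in COMBO, 19, 10.4, 14.8 and 18.7 CPM in IFN, 30.4, 21.5, 13.6 and 19.3 CPM in AZA and 35.9, 40.4, 33.9 and 34.6 CPM in vehicle. This marker was thus near 0 in the 3 COMBO libraries, and COMBO libraries 2 and 3 held under 3 counts of it. COMBO was lower than IFN by test (adjusted p = 8.36e-06), and the term was -5.56 ± 0.96 (adjusted p = 0.000722). On the CPM scale the sum also predicted a level near 0, at 0.691 CPM, against a COMBO mean of 0.176 CPM. Hlf, a transcription factor of stem cell identity, had 33, 40.2 and 32.8 CPM in COMBO, 255, 211, 180 and 241 CPM in IFN, 325, 290, 133 and 270 CPM in AZA and 451, 505, 428 and 415 CPM in vehicle. Its term was -1.83 ± 0.32 (adjusted p = 0.000595) on the log scale, but on the CPM scale the sum predicted 26.9 CPM, under the 35.4 ± 4.2 CPM of COMBO (SD, n = 3), so its side depends on the scale. Mecom, a zinc-finger regulator of stem cell maintenance, stood at 26.6 to 43.5 CPM in COMBO, 150 to 248 CPM in IFN, 213 to 291 CPM in AZA and 261 to 307 CPM in vehicle, with no overlap between COMBO and the others (term -2.39 ± 0.41, adjusted p = 0.000605). Meis1, a homeobox factor, changed less, at 319 to 391 CPM in COMBO, 550 to 640 CPM in IFN, 544 to 634 CPM in AZA and 597 to 706 CPM in vehicle (term -0.63 ± 0.17, adjusted p = 0.0356).

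Ly6a encodes Sca1, the antigen of the sort, and belongs to the LT-HSC list. It had 15.5, 18 and 11.6 CPM in COMBO, 63, 48.1, 47.7 and 53.2 CPM in IFN, 53.6, 53.1, 44.4 and 38.1 CPM in AZA and 15.3, 12.1, 13.3 and 12.8 CPM in vehicle libraries. COMBO overlapped vehicle and lay below every library of both single drugs. The log2 change was 0.17 ± 0.28 in COMBO (adjusted p = 0.764), 1.99 ± 0.27 with interferon and 1.82 ± 0.27 with azacytidine, and the term was -3.64 ± 0.40 (adjusted p = 7.24e-07). The other transcripts of the sort, looked at after the values were seen, were as follows. Kit was at 514 to 677 CPM in COMBO, 595 to 691 CPM in IFN, 593 to 674 CPM in AZA and 683 to 804 CPM in vehicle. Slamf1, which encodes CD150, overlapped in the 4 groups, and Cd48, the antigen sorted against, was at 14.1 to 22.8 CPM in COMBO, 4.77 to 14.3 CPM in IFN, 4.97 to 11 CPM in AZA and 4.52 to 7.6 CPM in vehicle, rising against vehicle by 1.54 log2 units (adjusted p = 0.0358).

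Genes outside the lists were also among those named for their small p. Cadps2, a regulator of vesicle release, had 3.12, 4.72 and 2.41 CPM in COMBO, 51.7, 32.1, 40.8 and 47.9 CPM in IFN, 49.9, 46.4, 33.7 and 47 CPM in AZA and 68.8, 66.7, 62.1 and 63.1 CPM in vehicle. Zfp532, a zinc-finger protein, had 2.87, 2.19 and 7.15 CPM in COMBO, 40.2 to 65.8 CPM in IFN, 42.9 to 90.1 CPM in AZA and 67.1 to 89.8 CPM in vehicle. In both genes every COMBO library was below every other library, and neither drug alone passed the test. In Cadps2, however, every IFN and AZA library lay below every vehicle library. The terms were -3.12 ± 0.37 for Cadps2 (adjusted p = 2.78e-06) and -3.37 ± 0.43 for Zfp532 (adjusted p = 6.25e-06).

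Genes above the sum included 6 of the erythroid list (red cell formation), and all 6 calls were lost without COMBO library 3. Of the 15 VFDM libraries, that library had the fewest counts (17782394) and the fewest detected rows (18450). Erythroid genes as a list rose in COMBO, 24 of 28 passing upward and 1 downward, while interferon alone raised 2 and azacytidine alone 11. The shares over all genes were 5.52% up and 10.5% down in COMBO, 0.916% up with interferon and 0.852% up with azacytidine. On the term 6 of the 28 lay above, 0 below and 22 did not pass, with a median of 0.11 beside -0.10 over all genes, while without COMBO library 3 there were 0 above and without the library labelled VFDM_IFN 3 there were 5. The 6 were the globins Hba-a1, Hba-a2, Hbb-bs and Hbb-bt, Alas2, which starts haem synthesis, and Fech, which inserts its iron. Globin copies are near-identical, so the split of reads among them is uncertain. Hbb-bs had 320, 6140 and 946 CPM in COMBO, 6.79, 4.33, 23.5 and 12.8 CPM in IFN, 6.37, 1.47, 12.5 and 10.1 CPM in AZA and 42.5, 9.97, 1.56 and 1.39 CPM in vehicle. All COMBO libraries were above all others, with library 3 highest, and the term was 8.54 ± 2.01 (adjusted p = 0.0221, but 0.1 without COMBO library 3, and over 0.05 also without vehicle library 1, IFN library 1 or 2 or AZA library 1 or 2). Fech stood at 81.8, 376 and 141 CPM in COMBO, 33.6 to 56.3 CPM in IFN, 55.3 to 97.8 CPM in AZA and 46.8 to 55.3 CPM in vehicle, a term of 1.65 ± 0.37 (adjusted p = 0.00881) that was 0.88 without COMBO library 3 (adjusted p = 0.122).

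Tent5c, a poly(A) polymerase of maturing red cells, had the smallest p among named genes above the sum. Its libraries held 44.2, 808 and 125 CPM in COMBO, 9.48, 10.2, 8.18 and 9.87 CPM in IFN, 6.34, 9.94, 9.84 and 8.36 CPM in AZA and 10, 2.84, 6.9 and 9.51 CPM in vehicle. COMBO lay above every other library, the term was 4.88 ± 0.82 (adjusted p = 0.000735), and without COMBO library 3 it was 3.0 (adjusted p = 0.00409). Bpgm, which makes the red cell metabolite that loosens oxygen from haemoglobin, had 35.1, 472 and 99.4 CPM in COMBO, 23 to 28.1 CPM in IFN, 18.8 to 26.5 CPM in AZA and 23.5 to 26.9 CPM in vehicle. Its COMBO libraries were above all others, and its term of 3.27 ± 0.66 (adjusted p = 0.00503) became 1.75 without COMBO library 3 (adjusted p = 0.0524). Ube2o, a ubiquitin enzyme that clears ribosomes in reticulocytes, had 39.8, 619 and 127 CPM in COMBO, 22.5 to 38.4 CPM in IFN, 29.4 to 64.7 CPM in AZA and 44.5 to 49 CPM in vehicle. COMBO overlapped AZA, and 1 COMBO library lay below vehicle. It had a term of 3.23 ± 0.65 (adjusted p = 0.00504), which was 1.64 without COMBO library 3 (adjusted p = 0.0263). The ubiquitin ligase Mkrn1 (1.89) and the mitochondrial iron importer Slc25a37 (1.85) passed with all libraries, at adjusted p = 0.00704 and 0.0105, and not without COMBO library 3, at 0.90 and 0.80. Xylt1, which starts proteoglycan chains, was above the sum without such a spread, at 122, 126 and 109 CPM in COMBO, 34.7 to 52.6 CPM in IFN, 30.7 to 51.4 CPM in AZA and 34.3 to 42.7 CPM in vehicle (term 1.31 ± 0.30, adjusted p = 0.0119). COMBO lay above every other library in Xylt1, and the phosphatase Cdc14a was likewise at 87.1 to 114 CPM in COMBO, 58.8 to 73.3 CPM in IFN, 53.1 to 68.2 CPM in AZA and 71.6 to 83.3 CPM in vehicle (term 0.99 ± 0.23, adjusted p = 0.0116).

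Other erythroid genes rose in COMBO with terms that did not pass; these were picked after their values were seen. Gata1, the erythroid master factor, had 108, 89.6 and 69.7 CPM in COMBO, 19.4 to 50.2 CPM in IFN, 22.3 to 63.6 CPM in AZA and 6.98 to 9.74 CPM in vehicle. COMBO was above all other libraries, each drug alone also raised it, and the term was -0.82 ± 0.48 (adjusted p = 0.554). Car1, a carbonic anhydrase, had 270, 247 and 195 CPM in COMBO, 5.02 to 26.3 CPM in IFN, 4.97 to 65.4 CPM in AZA and 0 to 2.12 CPM in vehicle, a term of -1.55 ± 1.55 (adjusted p = 0.850). On the CPM scale the sum predicted 63.6 CPM for Gata1 and 55.2 CPM for Car1. Their COMBO means were higher, at 89.1 and 237 CPM, so the side of both genes depends on the scale.

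Markers of cells other than LT-HSCs moved with these results, and their part in them was not tested. The summed level of the 28 erythroid markers, all detected in each COMBO library, was 3650 to 23100 CPM in COMBO, 975 to 1120 CPM in IFN, 960 to 2180 CPM in AZA and 926 to 967 CPM in vehicle. The 40 LT-HSC genes, of which 36 to 38 were detected in a COMBO library, summed to 2980 to 3410 CPM in COMBO, 5250 to 5830 CPM in IFN, 5220 to 5780 CPM in AZA and 5560 to 6350 CPM in vehicle. The sum of 21 neutrophil markers was 769 to 2030 CPM in COMBO, 158 to 755 CPM in IFN, 62.8 to 116 CPM in AZA and 144 to 218 CPM in vehicle. Of 20 neutrophil genes tested on the term 0 passed, with 3 at an unadjusted p under 0.05, although 12 rose in COMBO and 9 with interferon alone. The shares over all genes were 2.03% passing on the term, 5.52% up in COMBO and 0.916% up with interferon. Monocyte and macrophage markers (21) summed to 120 to 357 CPM in COMBO, 141 to 319 CPM in IFN, 63.2 to 122 CPM in AZA and 85.7 to 101 CPM in vehicle. The sum of the dendritic cell markers (12) went the other way, at 167 to 201 CPM in COMBO, 262 to 299 CPM in IFN, 238 to 302 CPM in AZA and 306 to 392 CPM in vehicle, with COMBO below every other library. Gene by gene the dendritic list was mixed. Of 10 members tested against vehicle, 4 rose in COMBO and 3 fell, with a median log2 change of 1.75. Mast cell, basophil and eosinophil markers (13) summed to 500 to 781 CPM in COMBO, 367 to 485 CPM in IFN, 355 to 507 CPM in AZA and 332 to 413 CPM in vehicle. Endothelial and stromal markers (15) summed to 96.3 to 161 CPM in COMBO, 87.3 to 118 CPM in IFN, 68.1 to 84.5 CPM in AZA and 57.6 to 94.8 CPM in vehicle. The 16 T and NK cell markers summed to 25.3 to 53 CPM in COMBO, 12.3 to 28.2 CPM in IFN, 6.83 to 14.9 CPM in AZA and 8.31 to 12.1 CPM in vehicle, and the 16 B cell markers to 10.5 to 81.8 CPM in COMBO, 7.49 to 17.1 CPM in IFN, 1.78 to 9.84 CPM in AZA and 5.24 to 7.84 CPM in vehicle. The GFP transgene row had 389, 1030 and 514 CPM in COMBO, 251 to 390 CPM in IFN, 301 to 441 CPM in AZA and 355 to 412 CPM in vehicle (term 0.93 ± 0.38, adjusted p = 0.285).

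**Figure D4:**
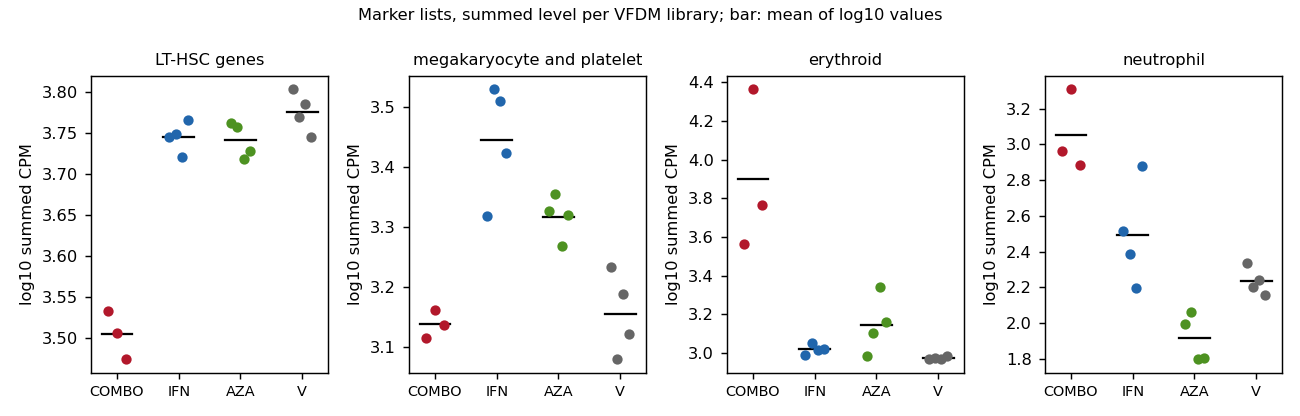
Summed CPM of 4 marker lists in each VFDM library, on a log10 axis; points are libraries and bars the mean of the log10 values. COMBO lies below all other libraries for LT-HSC genes, at 2980 to 3410 CPM, and above all others for erythroid markers, at 3650 to 23100 CPM, and neutrophil markers, at 769 to 2030 CPM.

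Some megakaryocyte and platelet genes also lay below the sum. Of 26 genes 5 lay below, 0 above and 21 did not pass, with a median term of -0.90, and 3 lay below without the library labelled VFDM_IFN 3. Interferon alone raised 6 and azacytidine 2, while in COMBO 4 rose and 6 fell. Over all genes 1.87% lay below the sum, and in COMBO 5.52% rose and 10.5% fell. The summed markers stood at 1300 to 1450 CPM in COMBO, 2080 to 3380 CPM in IFN, 1850 to 2260 CPM in AZA and 1200 to 1710 CPM in vehicle, so COMBO overlapped vehicle and lay below both drugs. Pf4, platelet factor 4, had 97.6, 33.5 and 84.7 CPM in COMBO, 127, 262, 273 and 152 CPM in IFN, 145, 161, 46 and 116 CPM in AZA and 39.5, 12.1, 14.3 and 15.7 CPM in vehicle (term -4.02 ± 0.80, adjusted p = 0.00567). Its COMBO libraries lay below IFN and overlapped AZA and vehicle. Rap1b, a small GTPase of platelet integrin signalling, had 219 to 231 CPM in COMBO, 347 to 565 CPM in IFN, 269 to 374 CPM in AZA and 158 to 190 CPM in vehicle, with no overlap between COMBO and any group (term -2.04 ± 0.27, adjusted p = 1.15e-05). Fli1, a megakaryocyte and stem cell factor, was at 110 to 130 CPM in COMBO, below IFN (223 to 304 CPM), AZA (191 to 243 CPM) and vehicle (187 to 235 CPM), a term of -1.27 ± 0.21 (adjusted p = 0.000249).

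Targets and feedback genes of JAK2 and STAT5 departed in 1 of 22 members, beside 2.03% over all genes. In COMBO 7 of the 22 fell and 0 rose, and with each single drug 0 passed. Over all genes 10.5% fell in COMBO and 5.52% rose. Pim1, a survival kinase induced by STAT5, had 64.6, 74.5 and 66 CPM in COMBO, 196, 222, 192 and 197 CPM in IFN, 160, 161, 150 and 148 CPM in AZA and 240, 206, 219 and 215 CPM in vehicle. Each COMBO library was below every other library, and the term was -1.05 ± 0.27 (adjusted p = 0.025). That call was lost in 8 of the 15 fits that left out a library (COMBO 2, 3 or 4, IFN 2, AZA 1, vehicle 2, 3 or 4), at terms of -0.97 to -1.06 and adjusted p up to 0.0762. Socs2, a feedback inhibitor, stood at 1.91 to 9.87 CPM in COMBO, 35.5 to 82.1 CPM in IFN, 53 to 125 CPM in AZA and 109 to 149 CPM in vehicle, and its term did not pass (-2.69 ± 0.94, adjusted p = 0.169). Mouse Jak2 had a term of -0.06 ± 0.17 (adjusted p = 0.977), and it rose in COMBO against vehicle (log2 0.47 ± 0.13, adjusted p = 0.00806). In the BCL2 family 1 of 16 departed, beside 2.03% over all genes. It was the survival gene Bcl2, at 78.1, 79.8 and 79.9 CPM in COMBO, 112, 147, 133 and 132 CPM in IFN, 106, 96.1, 80.7 and 126 CPM in AZA and 96.1, 77.4, 97.9 and 78.2 CPM in vehicle. COMBO lay below both drugs and overlapped vehicle (term -0.95 ± 0.21, adjusted p = 0.00696).

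Among 20 genes of the DNA methylation machinery 1 departed, beside 2.03% over all genes. This was Dnmt3a itself, the targeted de novo methyltransferase. It had 51.5, 23 and 57 CPM in COMBO, 104, 111, 162 and 102 CPM in IFN, 107, 105, 95.1 and 83.4 CPM in AZA and 119, 120, 119 and 109 CPM in vehicle. COMBO was below every other library, and COMBO was lower than IFN and than AZA by test (adjusted p = 8.93e-05 and 0.00132). The term of -1.19 ± 0.31 (adjusted p = 0.033) did not pass without the library labelled VFDM_IFN 3 (-1.01, adjusted p = 0.0961), without COMBO library 3 (-0.82, adjusted p = 0.165), or without any of the 4 vehicle libraries or AZA library 1 or 2. Dnmt1, the maintenance enzyme and main target of azacytidine, had 590 to 733 CPM in COMBO, 519 to 714 CPM in IFN, 552 to 679 CPM in AZA and 442 to 604 CPM in vehicle, all overlapping (term -0.08 ± 0.25, adjusted p = 0.985). Dnmt3b, the other de novo enzyme, had a term of -0.21 ± 0.34 (adjusted p = 0.939), and it fell in COMBO against vehicle (log2 -1.25 ± 0.26, adjusted p = 0.000732).

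By edgeR, 10 lists of 285 genes in all held 0 departures from the sum, beside 2.03% over all genes. They were taken from the lists with no member called, so the 0 follows from the choice. Of the 285 genes 7 were at an unadjusted p under 0.05, beside 2657 of all 22172. Other lists without a call, such as MHC class II presentation (9 genes, median term -1.3), are not in this count. The 10 lists were DNA replication and S phase (30 genes), G2 and mitosis (25), replication-dependent histones (24), p53 targets (24), retroelement silencing (19), cytosolic ribosomal proteins (68), ribosome biogenesis (26), nuclear oxidative phosphorylation subunits (38), mitochondrially encoded genes (13) and the unfolded protein and heat shock response (18). In COMBO 11 of the 30 replication genes, 6 of the 25 mitotic genes and 11 of the 26 ribosome biogenesis genes rose and none of these fell. Over all genes 5.52% rose in COMBO and 10.5% fell. The median term was 0.14 for the replication genes and -0.19 for the mitotic genes, beside -0.10 over all genes. A term that does not pass is not shown to be 0: on simulated data the model called 9% of terms of 1 log2 unit and 65% of terms of 2. The genes changed in that simulation had a mean log2 CPM of at least 1, so these rates do not cover lower genes.

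Whether the departures differ from those in Dnmt3a-intact cells was tested as the VFDM term minus the VF term. That difference passed for 38 of 22172 genes (0.171%), 2 above (0.00902%) and 36 below (0.162%), and in 35 of the 36 the VFDM term itself was below the sum. The VF term alone passed for 19 genes (0.0857%), 15 above (0.0677%) and 4 below (0.018%), by edgeR. DESeq2 called 237 genes for the VF term and limma voom 0, with 2399 at an unadjusted p under 0.05 by edgeR. Of the 49 type I interferon-stimulated genes 15 had a lower term in VFDM by this test, as did 2 of the 40 LT-HSC genes, 3 of the 24 sensors and 0 of the 19 GTPases (12 of the GTPases at an unadjusted p under 0.05). Of the 36 genes, 23 had risen with each drug alone in VFDM. The count was 21 without vehicle library VF_V 1, 22 without VF_V 4, 25 without the library labelled VFDM_IFN 3, 101 without VF_COMBO 3 and 17 without VFDM_V 4; small RNA rows took up to 37.5% of the counts in a VF_V library, against up to 9.07% in a VFDM library.

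Between the genotypes the interferon genes differed in the AZA libraries. Irf7 had 155, 163, 108 and 139 CPM in VF_COMBO, 139, 170, 183 and 157 CPM in VF_IFN, 14.1, 3.34, 15.9 and 16.6 CPM in VF_AZA and 19.4, 11.3, 9.79 and 20.4 CPM in VF_V. In VF, COMBO thus overlapped IFN and AZA overlapped vehicle, whereas in VFDM the AZA libraries lay above all vehicle libraries and below all IFN libraries. The term was -3.59 ± 0.45 in VFDM and 0.07 ± 0.41 in VF, a difference of -3.66 ± 0.60 (adjusted p = 0.00403). Usp18 had the smallest p of the difference, with terms of -2.90 ± 0.37 in VFDM and 0.72 ± 0.34 in VF, a difference of -3.62 ± 0.50 (adjusted p = 0.000561). Oas2 had terms of -3.55 ± 0.32 in VFDM and -1.06 ± 0.30 in VF, a difference of -2.49 ± 0.43 (adjusted p = 0.0051). Esam, a stem cell gene that neither drug alone changed by test in VFDM, had 36.8, 15.2, 26.7 and 29.3 CPM in VF_COMBO, 40.1, 38.3, 54.3 and 47 CPM in VF_IFN, 67.4, 62.1, 36.4 and 69.3 CPM in VF_AZA and 93, 62.4, 68.2 and 95.5 CPM in VF_V. Its VF_COMBO libraries lay below VF_IFN and VF_V and overlapped 1 VF_AZA library, and none came down to the 2.7 to 5.68 CPM of VFDM_COMBO, and the difference of terms was -2.78 ± 0.58 (adjusted p = 0.031). Ly6a, at 24.3 to 63.1 CPM in VF_COMBO and 49.5 to 61.4 CPM in VF_IFN, had a difference of -2.94 ± 0.53 (adjusted p = 0.00675). Procr (-5.18 ± 1.22, adjusted p = 0.076), Hlf (-0.85 ± 0.44, adjusted p = 0.572), Tent5c (4.43 ± 1.11, adjusted p = 0.119) and Bcl2 (0.13 ± 0.28, adjusted p = 0.966) had differences that did not pass.

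**Figure D5:**
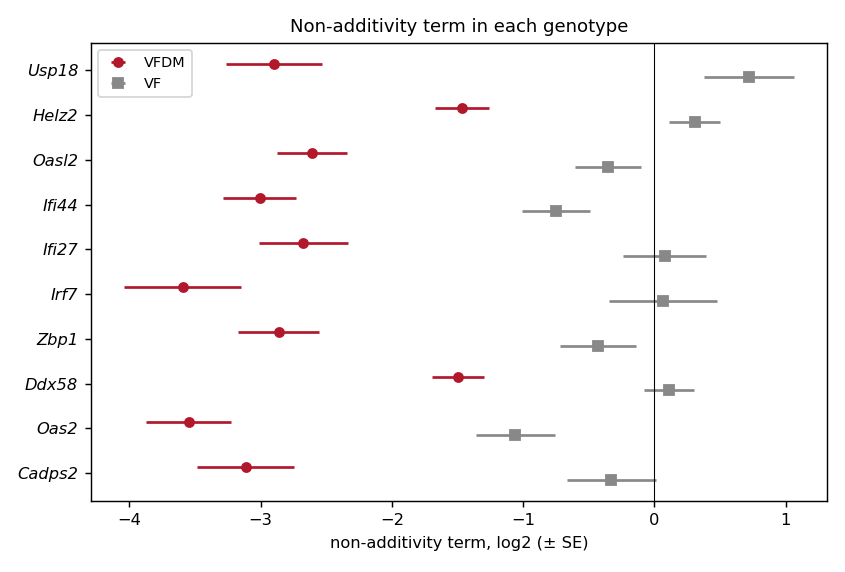
Non-additivity term (log2, ± SE) in VFDM and in VF for the 10 genes with the smallest p of the difference between genotypes. The VFDM terms lie between -3.59 and -1.47 and the VF terms between -1.06 and 0.72, with no overlap of the error bars in any of the 10. The genes were chosen by this difference, so the gap between the bars follows from the choice.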

How the data were processed

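RNA of sorted LT-HSCs was extracted with the PicoPure kit and made into stranded Takara SMART-Seq libraries, per the labels' protocols. The deposited file is a table of raw gene counts made by the authors, and the submitters' processing notes name STAR 2.7.10a, featureCounts, FastQC 0.11.5, R 4.3.0 and the build mm10. No source used here states the annotation, strand setting or treatment of multiply mapped reads, so overlapping, antisense and near-identical genes are uncertain. The table has 55492 rows, of which 55227 matched a symbol in GENCODE vM21 and 5 are transgene rows.

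All 31 libraries entered 1 edgeR 4.0.16 fit (R 4.3.3), with TMM scaling, filterByExpr (minimum count 10, minimum total 15), a robust quasi-likelihood fit with 1 mean per group, two-sided tests and Benjamini-Hochberg adjustment over 22172 rows. Adjusted p-values come from it, or from the same fit with 1 library left out where the text says so. The SE is the log2 value divided by the square root of F, and CPM use TMM-scaled library sizes. The fit was tested on simulated data with 22172 genes. Alternatives included DESeq2 1.42.0 and limma 3.58.1. Replicate numbers did not pair the libraries: 1 of 21 same-number pairs correlated above 0.1 (median 0.00227).

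The comparison, its 34 gene lists and the tests were chosen with earlier results of these data known, and COMBO against each drug, AZA against IFN and the VF term were added after the data were seen. Named genes were the 15 below and 15 above the sum with the smallest p (predicted genes and those under a mean log2 CPM of 1 left out), up to 3 members of each list, the 10 genes with the smallest p of the genotype difference, the 5 rows with the smallest p, and Dnmt3a, Dnmt3b, Dnmt1, Jak2, Irf7 and Bcl2. Not all are described, and 1 gene of the rule is not reported here. Fam220a, whose symbol 2 rows share, and some genes whose term rests on groups near 0 are left out. Procr, Car1, Alas2 and the globins are reported although they have groups near 0, so the size of their terms is uncertain.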

Additional observations from a re-analysis of the deposited data

Results flagged for a closer look

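Among 183 groups of 4 libraries examined for the named genes, 14 had a library whose gap to its nearest neighbour took up most of the group's range; chance gives about 1 in 20 groups. Library 1 of VFDM_IFN was highest for Ifi44 (219 CPM, against 159 to 168 CPM in the others), Slfn5 (197 CPM, against 148 to 155), Mx1 (55.2 CPM, against 42.3 to 44) and Cmpk2 (85.9 CPM, against 62.2 to 65.4). Library 2 of that group was highest for Pim1 (222 CPM, against 192 to 197), and the library labelled VFDM_IFN 3 for Dnmt3a (162 CPM, against 102 to 111). Vehicle library 1 was highest for Oasl2 (89.5 CPM, against 68.6 to 69.5), Fli1 (235 CPM, against 187 to 194), Pf4 (39.5 CPM, against 12.1 to 15.7), Slc25a37 (56.2 CPM, against 51.9 to 52.6) and Alas2 (2.62 CPM, against 0.22 to 0.503). Vehicle library 4 was lowest for Dnmt3a (109 CPM, against 119 to 120). Among VFDM_AZA libraries, Ube2o was highest in library 3 (64.7 CPM, against 29.4 to 32.5) and Alas2 in library 4 (2.27 CPM, against 0 to 0.195).

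The non-additivity term differed between VFDM and VF for 38 genes by the test of the difference itself. Among the 10 with the smallest p, the difference was -3.62 for Usp18, -1.77 for Helz2, -2.26 for Oasl2, -2.26 for Ifi44, -2.75 for Ifi27, -3.66 for Irf7, -2.43 for Zbp1, -1.61 for Ddx58, -2.49 for Oas2 and -2.79 for Cadps2, with adjusted p from 0.000561 to 0.00675 (edgeR).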

How the results depend on the processing

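The count of departures from the sum (451) was 423 with RLE size factors, 388 without the filter, 608 with limma voom, 412 on protein-coding rows, 853 with DESeq2 (105 above, 748 below), 1353 without libraries of fewer than 20000 detected rows (148 above, 1205 below) and 730 on the VFDM libraries alone. With a replicate block it was 350, and with the block the genotype difference passed for 21 genes, where 38 passed without it. Leaving out each library in turn gave 297 to 443 departures, and 17 to 101 genes for the difference, which was 239 with DESeq2 and 190 without the libraries of few detected rows. Interferon against vehicle called 214 genes (203 up, 11 down), 120 to 227 with a library left out, 331 with DESeq2, 1950 with voom (975 up, 975 down), 631 without libraries of few detected rows and 1092 on its groups alone. Azacytidine against vehicle called 205, 112 to 285 with a library left out, 418 with DESeq2, 796 with voom and 478 on its groups alone. COMBO against vehicle called 3550, 2531 to 3081 with a library left out, and 6062 without libraries of few detected rows. The causes were not tested. Over 61 genes and 23 settings, 95 values lost a call and 7 gained one, and none reversed. On the CPM scale 54 of 60 genes kept their sign. Ltbp3 (0.19) and Hlf (0.40), which passed below the sum on the log scale, lay above it. So did Isg15, Gata1, Car1 and Dnmt3b, whose log-scale terms were below 0 without passing. Members below the sum numbered 33 to 44 of 49 for type I interferon-stimulated genes, 12 to 18 of 19 for the GTPases and 8 to 23 of 40 for LT-HSC genes. Depth limits low genes: 3 counts are up to 0.173 CPM.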
